A study of Mus musculus with 12 samples.

Results

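Abundant long noncoding RNAs (lncRNAs) were followed in mouse regulatory T cells (Treg) with and without the transcription factor Ikaros. They were 6 genes chosen by name, of which Malat1, Neat1, Gas5, Snhg1 and Snhg12 had a row among the 36222 genes of the table, while Snhg8 was not analysed here. All 5 passed the filter on low values (a mean of at least 5 TPM in the highest group) (13318 genes in all did). TPM are reads divided by gene length and scaled to a total of 1000000 in each library.

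RNA sequencing was done on 12 libraries, 3 for each of 4 groups, from individual mice. Foxp3-YFP-Cre, a Cre that is expressed with Foxp3 and tagged by yellow fluorescent protein, was carried by the mice of all 4 groups. Wild-type (WT) mice had this Cre only, and Ikzf1-fl-Foxp3-YFP-Cre mice (cKO) also had the floxed Ikzf1 allele, so that Ikaros is lost in cells that express Foxp3. The labels give spleen as the source, and YFP+ Treg were sorted from CD4+ T cells. RNA was taken from them directly (WT ex vivo, cKO ex vivo) or after activation for 4 h by plate-bound antibodies to CD3 and CD28 at 1 µg/ml each (WT stimulated, cKO stimulated). No group was cultured without the antibodies, so effects of the antibodies and of the culture cannot be told apart. The ex vivo mice were matched in age, at 6 to 8 weeks, and the age of the mice whose cells were stimulated is not given in the sources used here. The RNA was total RNA depleted of ribosomal RNA, so transcripts without a poly(A) tail were also read.

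Malat1 and Neat1 are unspliced or little-spliced nuclear RNAs transcribed next to each other. Malat1 gathers in nuclear speckles, where splicing factors are stored, and Neat1 is the scaffold of paraspeckles. Gas5, Snhg1, Snhg8 and Snhg12 are small nucleolar RNA (snoRNA) host genes: their introns hold the snoRNAs that guide modification of ribosomal RNA. The spliced Gas5 RNA begins with a run of pyrimidines like that of ribosomal protein mRNAs, is degraded by nonsense-mediated decay while it is translated, and was first found in cells arrested in growth. In T cells Gas5 has also been described as a decoy of the glucocorticoid receptor.

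The start sites of the snoRNA hosts are shown first, because a run of pyrimidines there is a known feature of Gas5. RefSeq promoter sequences (GRCm38.p6, 250 bases before to 50 after the annotated start) were at hand for 5 of the 6 names, Neat1 being the exception. The 60 bases around each start are given 5′ to 3′ on the strand of the gene, the start lying after the first 30 bases, and capitals mark the longest unbroken run of C and T that reaches to within 5 bases of the start. Gas5 had 2 entries, of which the downstream one, whose run was the longer, is printed.
Gas5 (chr1:161035136-161035195, + strand): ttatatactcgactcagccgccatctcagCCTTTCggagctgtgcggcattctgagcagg
Snhg1 (chr19:8723457-8723516, + strand): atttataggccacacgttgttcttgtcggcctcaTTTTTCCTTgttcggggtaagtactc
Snhg8 (chr3:123508307-123508366, - strand): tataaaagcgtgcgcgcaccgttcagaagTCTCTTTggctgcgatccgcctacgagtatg
Snhg12 (chr4:132308648-132308707, + strand): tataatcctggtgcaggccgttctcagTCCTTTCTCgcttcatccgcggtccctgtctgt
Malat1 (chr19:5802643-5802702, - strand): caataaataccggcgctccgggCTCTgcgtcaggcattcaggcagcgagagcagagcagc
The run was 9 bases long in Snhg1 and Snhg12, 7 in Snhg8, 6 in the printed Gas5 entry, 3 in the upstream Gas5 entry and 4 in Malat1. Among all 32851 promoters of the table the median run was 3 bases, and 6.89% had a run of at least 9, 14.1% of at least 7, 21% of at least 6, 48.7% of at least 4 and 67.8% of at least 3. These are descriptions of letters in a window, not of where transcription started in Treg.

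The Snhg12 promoter is shown whole because Snhg12 had the lowest level in cKO relative to WT. Capitals mark the single match to TGGGAA, the core sequence that Ikaros binds, which here lies on the reverse strand and so reads as TTCCCA.
Snhg12 promoter (chr4:132308428-132308727, + strand, GRCm38.p6): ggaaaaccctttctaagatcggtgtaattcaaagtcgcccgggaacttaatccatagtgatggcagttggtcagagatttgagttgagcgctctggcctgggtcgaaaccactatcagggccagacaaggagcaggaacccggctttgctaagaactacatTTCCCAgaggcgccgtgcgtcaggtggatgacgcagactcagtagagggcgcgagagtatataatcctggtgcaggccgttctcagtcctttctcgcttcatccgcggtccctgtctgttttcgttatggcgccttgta
TGGGAA, searched on both strands, was also found once in the upstream Gas5 entry and not in the printed Gas5 entry, nor in the Snhg1, Snhg8 or Malat1 windows of 300 bases. It was present in 25.6% of all promoters. The shorter AGGAA, a part of many Ikaros and ETS family sites, was found 1 to 3 times in every window but the upstream Gas5 entry, and in 66.7% of all promoters. No match was tested for binding.

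In the mm9 build used for counting, Malat1 (ENSMUSG00000092341) lies on chromosome 19 from 5795690 to 5802671 and Neat1 (ENSMUSG00000092274) on the same chromosome and strand (minus) from 5824708 to 5845478. Snhg1 (ENSMUSG00000090867) lies on chromosome 19 from 8797986 to 8800932, Gas5 (ENSMUSG00000053332) on chromosome 1 from 162964553 to 162968670, and Snhg12 (ENSMUSG00000086290) on chromosome 4 from 131864593 to 131866939, all on the plus strand. The annotation calls Malat1 and Neat1 processed transcripts and the others lincRNAs. The lengths behind the TPM were the whole exon unions: 6982 bases for Malat1, 20771 for Neat1, 3760 for Gas5, 2947 for Snhg1 and 1626 for Snhg12. The unions of Gas5, Snhg1 and Snhg12 include exon records that overlap snoRNAs and that of Neat1 includes its long isoform, so that the TPM of a shorter isoform is understated. The union of Snhg1 covers its whole span of 2947 bases, that of Gas5 3760 of 4118 and that of Snhg12 1626 of 2347. Reads from introns inside these unions were counted as reads of the host, so the values are not of spliced RNA alone.

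The libraries held 8208659 to 20247649 reads on genes, fewest in cKO stimulated. Gm10800, a single gene, held 17.7 to 55.9% of the TPM of a library, most in cKO stimulated (42.9 to 55.9%), and since TPM have a fixed total, the TPM of the lncRNAs are lower for it. Comparisons therefore rest on TPM divided by a scaling factor per library (trimmed mean of M-values), and levels are given as deposited. Ikzf1, the targeted gene, was lower in every cKO library (17.04 to 44.3 TPM) than in any WT library (66.4 to 125 TPM). T cell and Treg markers (Cd3e, Cd4, Foxp3, Il2ra, Ctla4, Ikzf2, Tnfrsf18) summed to 1543 to 2379 TPM in WT ex vivo, 2325 to 2455 TPM in cKO ex vivo, 1184 to 1637 TPM in WT stimulated and 912 to 1679 TPM in cKO stimulated. With stimulation 4 of the 7 were called lower in each genotype, 1 higher in WT and 2 higher in cKO. Of all tested genes, 19.3% were called lower and 12.7% higher in WT, and 26.5% and 17.3% in cKO. Under quantile normalization 4 of the markers were called higher and 1 lower in each genotype. Between the stimulated genotypes 2 of the 7 were called higher in cKO, beside 3.3% of all tested genes. The 6 B cell markers summed to 21.3 to 29.9 TPM in cKO ex vivo and 13.2 to 16.2 TPM in WT ex vivo, and to 18.1 to 24.1 TPM in cKO stimulated and 13.7 to 19.7 TPM in WT stimulated. The 1 of the 6 that was tested, Cd79b, was called higher in cKO after stimulation (0.96) and lower with stimulation in WT (-0.68). The 6 myeloid markers summed to 9.05 to 13.3 TPM in WT ex vivo and 17.8 to 20.9 TPM in WT stimulated, and to 11.5 to 19.4 and 15.6 to 24.2 TPM in the cKO groups. The part of these cells in the results was not tested. In bulk RNA, fewer cells of a type and less RNA per cell cannot be told apart.

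Malat1 was the highest of the 5 in every library and ranked 14th to 27th among all genes. Ex vivo its level was 3561, 2103 and 2520 TPM in the WT libraries and 3566, 3063 and 3752 TPM in the cKO libraries, ranges that overlap. The WT stimulated libraries held 1544, 1419 and 1839 TPM and the cKO stimulated libraries 1455, 1387 and 808 TPM, below every ex vivo library. The 40317 to 322963 reads behind these values put counting error at 0.498% or less, far under the spread between libraries.

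Neat1, per base of its long model, was far lower. The WT ex vivo libraries held 28.1, 15.8 and 20.01 TPM and the cKO ex vivo libraries 28.3, 23.8 and 26.0 TPM, again overlapping. The WT stimulated libraries, with 18.3, 17.5 and 20.8 TPM, lay within the WT ex vivo range, whereas the cKO stimulated libraries, with 15.9, 15.8 and 10.3 TPM, lay below all cKO ex vivo libraries. After scaling the WT groups did not overlap either, at 19.5 to 25.6 TPM ex vivo and 16.3 to 18.8 TPM after stimulation.

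Gas5 was the highest of the snoRNA hosts, at 97.3, 62.5 and 90.5 TPM in WT ex vivo and 67.8, 60.5 and 77.7 TPM in cKO ex vivo. The stimulated libraries were all lower, with 31.2, 30.6 and 31.7 TPM for WT and 24.4, 23.4 and 17.4 TPM for cKO. On the deposited scale all WT stimulated libraries (31.2 ± 0.536 TPM, SD, n = 3) lay above all cKO stimulated ones, but after scaling the groups overlapped, at 26.2 to 32.8 TPM in WT and 23.1 to 26.2 TPM in cKO.

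Snhg1 followed the same order of groups, with 64.5, 41.8 and 70.2 TPM in WT ex vivo and 38.2, 40.9 and 48.4 TPM in cKO ex vivo. The WT stimulated libraries held 16.8, 15.9 and 18.8 TPM and the cKO stimulated libraries 13.7, 11.7 and 9.64 TPM. No stimulated library reached the level of any ex vivo library.

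The level of Snhg12 was 31.5, 17.9 and 26.2 TPM in WT ex vivo and 14.5, 14.3 and 14.2 TPM in cKO ex vivo, groups that did not overlap. The WT stimulated libraries held 12.1, 11.7 and 14.2 TPM and the cKO stimulated libraries 8.83, 8.22 and 6.80 TPM, again without overlap. Its 79 to 568 reads per library were the fewest of the 5, with a counting error of 11.3% at the lowest.

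**Figure D1:**
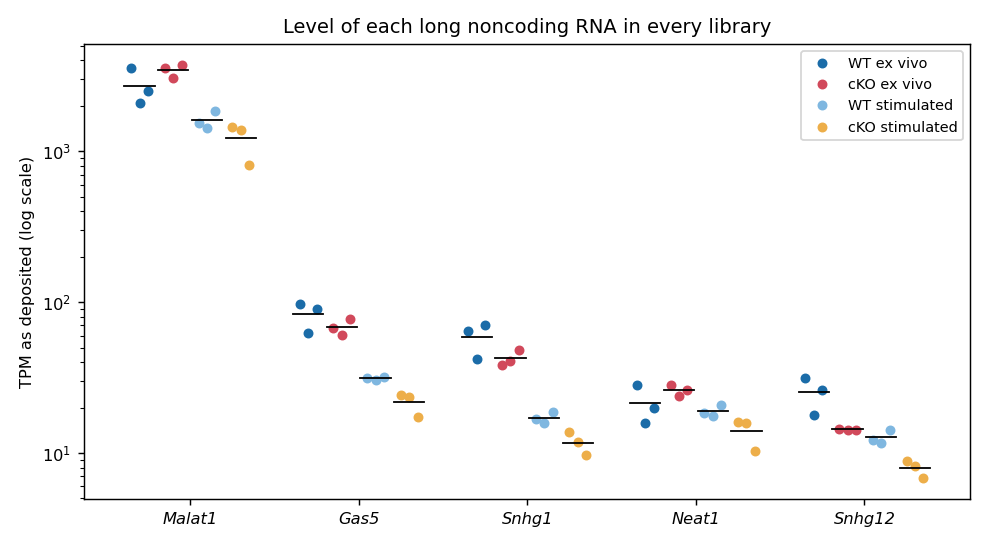
TPM as deposited (log axis) of each lncRNA in the 12 libraries; points are libraries, colored by group, and black lines are group means (n = 3). Malat1 is at 808 TPM or more in every library, and Gas5, Snhg1 and Snhg12 are lower in the stimulated libraries than in the ex vivo libraries of the same genotype.

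On the deposited scale the groups of cKO and WT ex vivo did not overlap for 1 of the 5 lncRNAs (Snhg12, lower), as for 1.47% of all tested genes lower and 21.4% higher. The stimulated genotypes did not overlap for 4 of 5, all lower in cKO (27.1% of all genes lower, 3.68% higher). Stimulated and ex vivo libraries did not overlap for 4 of 5 in WT, all lower (9.9% of all genes lower, 23.2% higher), and for 5 of 5 in cKO (43.9% lower, 7.55% higher). On this scale the shares over all genes lean to one side in each comparison, so that these counts are no measure of the lncRNAs alone. The part of Gm10800 in this was not tested.

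In the order of levels, Malat1 came first and Gas5 next in all 4 groups, with no library in common between them. In WT ex vivo the libraries of Gas5 and Snhg1 overlapped, as did those of Snhg12 and Neat1, at the bottom. In cKO ex vivo the order was Malat1, Gas5, Snhg1, Neat1 and Snhg12, with no neighbors overlapping. In both stimulated groups Snhg1 overlapped with Neat1, and Snhg12 was the lowest without overlap.

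Ex vivo, the lncRNAs called between the genotypes were a pair of snoRNA hosts. Snhg12 fell by 0.96 on the log2 scale in cKO relative to WT (SE 0.10, adjusted p = 0.000596, limma), from a scaled level of 26.2 ± 3.57 to 12.9 ± 0.796 TPM (SD, n = 3). Snhg1 fell by 0.67 (SE 0.13, adjusted p = 0.0132), from 61.7 ± 11.8 to 38.3 ± 4.75 scaled TPM. Both had groups that did not overlap after scaling.

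Gas5 did not pass the test ex vivo, with a log2 difference of -0.49 (SE 0.13, adjusted p = 0.054) and scaled libraries that also did not overlap, 77.3 to 96.4 TPM in WT and 51.4 to 70.04 TPM in cKO. Malat1 differed by 0.13 (95% interval -0.25 to 0.52, adjusted p = 0.78) and Neat1 by 0.08 (-0.20 to 0.37, adjusted p = 0.824). Gas5 was called under 5 alternatives: median of ratios scaling (adjusted p = 0.0426), quantile normalization (0.024), upper quartile scaling (0.015), limma-voom on the recovered reads (0.0124) and subtraction of the silent-gene background (0.0378). In the main test 2 of the 5 lncRNAs were called lower and none higher, beside 1.67% of all 13318 tested genes called lower and 3.62% higher (5.29% in all). No lncRNA was called on the TPM as deposited (Snhg12 -0.74, Snhg1 -0.43), with a filter of 1 TPM (-0.96 and -0.66) or with no filter (-0.98 and -0.68). The call for Snhg1 was also lost when cKO ex vivo replicate 1 (-0.64, adjusted p = 0.0559) or replicate 2 (-0.60, adjusted p = 0.0515) was left out, and in the fit of only the 6 ex vivo libraries (-0.65, adjusted p = 0.0715).

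After stimulation none of the 5 lncRNAs was called between the genotypes (limma), beside 3.3% of all tested genes called higher and 3.63% lower (6.93% in all). At an unadjusted p under 0.05, Snhg12 alone passed. Its log2 difference was -0.35 (SE 0.10, adjusted p = 0.0683), from 11.7 ± 0.851 scaled TPM in WT to 8.96 ± 0.509 in cKO, without overlap. The differences of Snhg1 (-0.25, adjusted p = 0.256), Gas5 (-0.23, adjusted p = 0.299) and Neat1 (-0.15, adjusted p = 0.502) had 95% intervals that included 0, and so did that of Malat1 (-0.14, interval -0.53 to 0.24, adjusted p = 0.646), which turned to 0.11 under quantile normalization and to 0.02 without cKO stimulated replicate 3. Snhg12 was called under quantile normalization (-0.48, adjusted p = 0.00667) and without WT ex vivo replicate 2 (adjusted p = 0.0315).

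Between stimulated and ex vivo libraries, which also differ by the time in culture, more of the lncRNAs were called. In WT, 4 of the 5 lncRNAs fell, beside 19.3% of all tested genes called lower and 12.7% higher (32% in all). Snhg1 fell by 1.88 on the log2 scale (SE 0.13, adjusted p = 3.49e-06, limma), to 0.257 of its ex vivo level in scaled TPM. Gas5 fell by 1.56 (SE 0.13, adjusted p = 1.31e-05), to 0.331 of its level. Snhg12 fell by 1.09 (SE 0.10, adjusted p = 2.79e-05), to 0.447 of its level.

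Malat1 fell by 0.94 (SE 0.17, adjusted p = 0.00197) in WT, to 0.518 of its level, but under quantile normalization its difference was 0.01 (adjusted p = 0.972), and the call was lost on the deposited TPM (-0.74, adjusted p = 0.0752), with a filter of 1 TPM (-1.19, adjusted p = 0.0655) and without a filter (-1.20, adjusted p = 0.123). Neat1 was not called (log2 difference -0.32, SE 0.13, adjusted p = 0.082), except with limma-voom on the recovered reads (-0.34, adjusted p = 0.0457). The 3 hosts kept their calls in WT under every alternative that was run.

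In cKO all 5 lncRNAs fell with stimulation, beside 26.5% of all tested genes called lower and 17.3% higher (43.8% in all). Snhg1 again fell the most, by 1.47 on the log2 scale (SE 0.13, adjusted p = 1.13e-05, limma), followed by Gas5 (-1.30, SE 0.13, adjusted p = 2.99e-05). Malat1 fell by 1.22 (SE 0.17, adjusted p = 0.000314) and Neat1 by 0.56 (SE 0.13, adjusted p = 0.00609). Snhg12 fell by 0.48 (SE 0.10, adjusted p = 0.00409), to 0.695 of its level. The sizes for Snhg12 and Neat1 moved with the scale: that of Snhg12 was -0.24 under upper quartile scaling, -0.78 on the deposited TPM and -0.99 with a filter of 1 TPM, and that of Neat1 was -0.31, -0.87 and -1.09, all of them called. Under quantile normalization Malat1 was not called (-0.33, adjusted p = 0.147).

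Whether the response to stimulation differed between the genotypes was tested as the interaction. None of the 5 lncRNAs was called (limma), beside 0.451% of all tested genes called higher and 0.653% lower (1.1% in all), and Snhg12 and Snhg1 had an unadjusted p under 0.05. The difference of responses, cKO minus WT, was 0.61 for Snhg12 (SE 0.15, adjusted p = 0.0776) and 0.41 for Snhg1 (SE 0.18, adjusted p = 0.33). On the deposited TPM it was 0.12 for Snhg12 (adjusted p = 0.746) and turned to -0.093 for Snhg1, and with a filter of 1 TPM it was 0.34 and 0.13. It was 0.26 for Gas5 (adjusted p = 0.544), -0.24 for Neat1 (adjusted p = 0.583) and -0.28 for Malat1 (adjusted p = 0.635). Snhg12 was called under upper quartile scaling (0.68, adjusted p = 0.0192) and when WT ex vivo replicate 2 was left out (0.72, adjusted p = 0.0382).

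**Figure D2:**
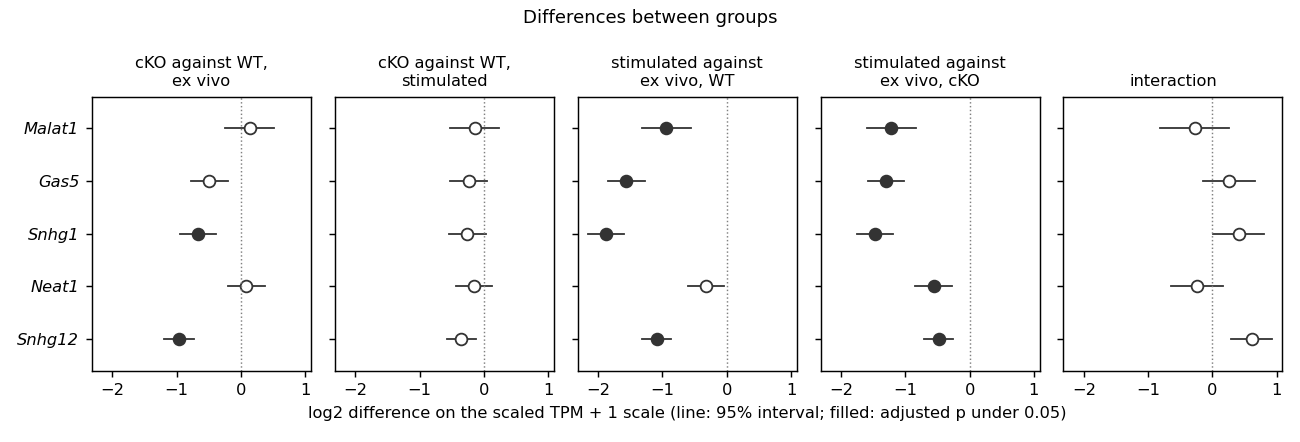
Log2 difference of each lncRNA in the 5 comparisons, on the scale of scaled TPM plus 1 (points: estimate of the 12-library fit; lines: 95% interval; filled points: adjusted p under 0.05). Snhg1 and Snhg12 are filled in the ex vivo genotype comparison, 4 of 5 are filled for stimulation in WT and 5 of 5 in cKO.

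Ratios between the lncRNAs within a library do not depend on the scaling or on Gm10800. The 7 ratios were compared in 4 comparisons each (28 exact two-sided permutation tests), in which p cannot go below 0.1 with 3 libraries against 3, so that none can pass 0.05, and no adjustment can lower it.

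The ratio of Malat1 to Neat1 differed between ex vivo and stimulated libraries. It was 128.6 ± 3.99 in WT ex vivo and 133 ± 10.003 in cKO ex vivo (SD, n = 3), with overlapping libraries (exact p = 0.7). It was 84.6 ± 3.86 in WT stimulated and 85.9 ± 6.42 in cKO stimulated (exact p = 0.8). Every stimulated library was below every ex vivo library in this ratio, a log2 difference of -0.60 in WT and -0.63 in cKO (exact p = 0.1 each).

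The hosts were lower relative to Malat1 in cKO than in WT ex vivo. The ratio of Snhg12 to Malat1 was 0.00885, 0.00850 and 0.0104 in the WT ex vivo libraries and 0.00406, 0.00467 and 0.00378 in the cKO ex vivo libraries, a log2 difference of -1.15 without overlap (exact p = 0.1). Snhg1 to Malat1 differed by -0.81 and Gas5 to Malat1 by -0.64 on the log2 scale, also without overlap (exact p = 0.1 each). After stimulation the genotypes overlapped in all 3 of these ratios (exact p = 0.4 to 0.5). As a share of the TPM of all 5 lncRNAs, the 3 hosts made up 5.80 ± 0.922% in WT ex vivo and 3.65 ± 0.27% in WT stimulated, against 3.48 ± 0.203% and 3.35 ± 0.538% in the cKO groups (SD, n = 3). The WT ex vivo libraries (5.11 to 6.85%) were above all others.

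Snhg12 kept more of its level than the other hosts on stimulation. Its ratio to Snhg1 was 0.43 ± 0.0577 in WT ex vivo and 0.74 ± 0.0171 in WT stimulated, and it was 0.34 ± 0.0435 in cKO ex vivo and 0.684 ± 0.0331 in cKO stimulated, with no overlap in either genotype (exact p = 0.1 each). Its ratio to Gas5 was higher after stimulation as well, by 0.44 in WT and 0.81 in cKO on the log2 scale, without overlap. Its ratio to Malat1 was lower after stimulation in WT (by -0.21) and higher in cKO (by 0.69), with no overlap in either genotype (exact p = 0.1 each), and no test was made of the difference between these.

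**Figure D3:**
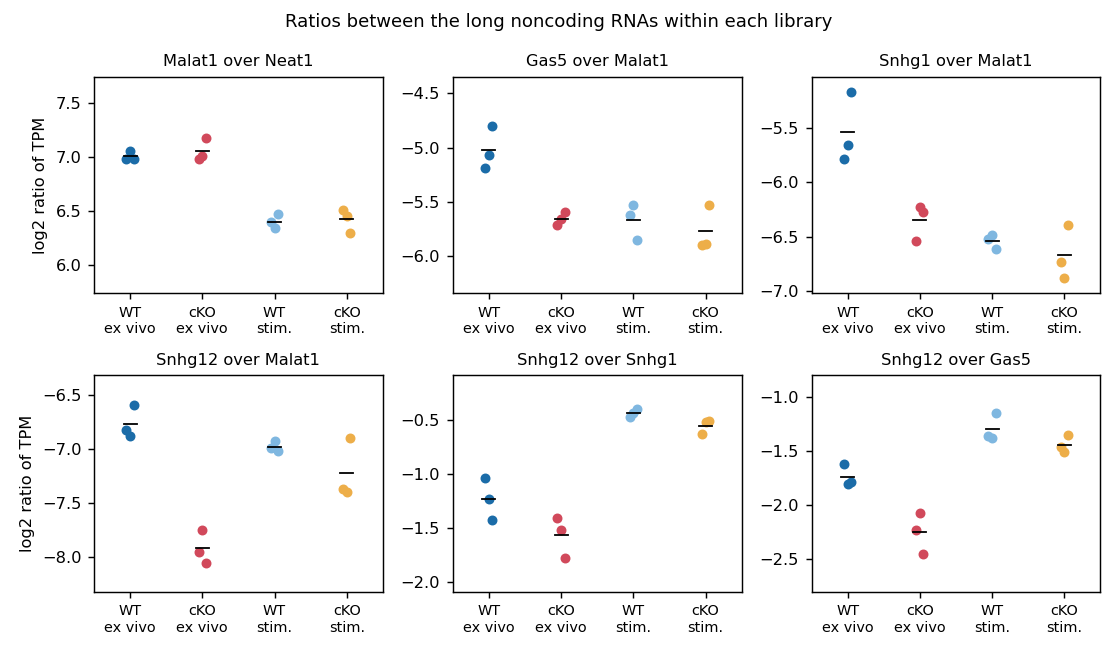
Log2 ratio of the TPM of the named lncRNAs within each library (points: libraries; black lines: means of 3; each panel spans 2 log2 units or a little more). Malat1 over Neat1 separates ex vivo from stimulated libraries, Snhg12 over Malat1 is lowest in cKO ex vivo, and Snhg12 over Snhg1 is higher in all stimulated libraries.

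Genes at the same loci were described by position. Slc3a2, which encodes the heavy chain CD98hc of amino acid transporters, starts head to head with Snhg1, 127 bases away on the opposite strand (chromosome 19, 8781372 to 8797859). Like Snhg1, Slc3a2 fell with stimulation, with a log2 change of -1.55 in WT (adjusted p = 1.83e-05, limma) and -1.56 in cKO (adjusted p = 1.21e-05). Between genotypes ex vivo, where Snhg1 fell, Slc3a2 was not called, with a log2 difference of 0.36 (SE 0.14, adjusted p = 0.194) and scaled levels of 141 to 159 TPM in WT and 172 to 205 TPM in cKO.

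Zbtb37, a zinc finger protein gene, overlaps the start of Gas5 on the opposite strand, with 427 bases between the starts (chromosome 1, 162938931 to 162964980). Zbtb37 rose with stimulation, by 0.35 in WT (adjusted p = 0.0233, limma) and 0.31 in cKO (adjusted p = 0.0287), while Gas5 fell. The reads were counted by strand. Frmd8, 4223 bases from Neat1, was called lower with stimulation in cKO (-0.35, adjusted p = 0.00872, limma), as Neat1 was. Between the stimulated genotypes Frmd8 was lower in cKO (-0.51, adjusted p = 0.00631) and Neat1 was not called. Trnau1ap, 738 bases from Snhg12 on the opposite strand, rose by 0.45 with stimulation in WT (adjusted p = 0.0416), where Snhg12 fell, and was not called in cKO (0.18, adjusted p = 0.345). Wdr74, 9396 bases from Snhg1, was not called with stimulation (0.012 in WT and -0.067 in cKO). Rab42-ps, 5292 bases from Snhg12, passed the filter of 5 TPM through the WT stimulated group alone, and its tests are not used. Gm20417, antisense within Malat1, had 1 to 7 reads per library and was not tested.

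The annotation places 9 snoRNAs inside Gas5, 8 inside Snhg1 and 4 inside Snhg12, and only Snora16a, in Snhg12 (chromosome 4, 131865380 to 131865515), had a row. Snora16a was also the only one that overlapped no exon record of its host, whereas all 9 in Gas5, all 8 in Snhg1 and 3 of the 4 in Snhg12 overlapped one. Snora16a guides pseudouridylation as an H/ACA snoRNA. It had 215, 152 and 331 reads in WT ex vivo and 193, 97 and 210 in cKO ex vivo. It had 26, 71 and 50 reads in WT stimulated and 17, 23 and 19 in cKO stimulated, fewer than in any ex vivo library. Snora16a fell with stimulation, with a log2 change of -2.14 in WT (SE 0.28, adjusted p = 0.000202, limma) and -2.10 in cKO (SE 0.28, adjusted p = 0.000192). Its differences between genotypes were -0.76 ex vivo (adjusted p = 0.171) and -0.72 after stimulation (adjusted p = 0.152), neither called.

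**Figure D4:**
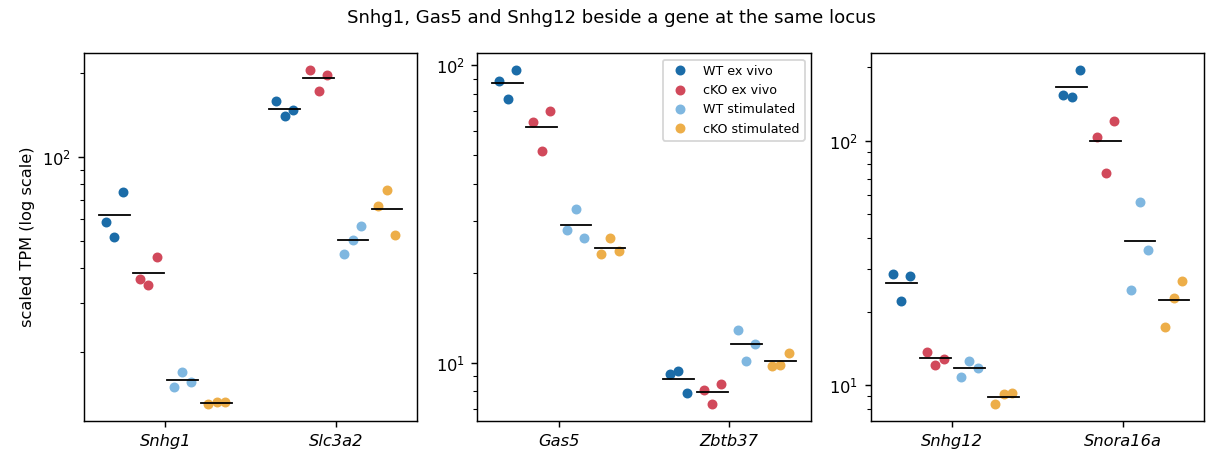
Scaled TPM (log axis) of Snhg1, Gas5 and Snhg12 beside a gene at the same locus, in the 12 libraries (points, colored by group; black lines: means of 3). Slc3a2 and Snora16a are lower after stimulation like their lncRNA neighbor or host, whereas Zbtb37 is higher and Gas5 lower.

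Other lncRNAs, mostly snoRNA hosts, came from a list of 19 names, of which 13 were tested. The counts of this list and the lists after it stand beside 19.3% of all tested genes called lower and 12.7% higher in WT, and 26.5% lower and 17.3% higher in cKO. In WT, 5 of the 13 fell and none rose (38.5% lower). The log2 change was -1.31 for Snhg5, -1.19 for Snhg3, -0.96 for Zfas1 and -0.42 for Snhg16. It was also -0.42 for Mir17hg, which hosts microRNAs rather than snoRNAs. In cKO, 4 fell and none rose (30.8% lower, close to the share of all tested genes). These were Snhg5 (-1.20), Snhg3 (-0.78), Zfas1 (-0.63) and Snhg15 (-0.58). In WT 2 were called lower on the deposited TPM and 3 under quantile normalization or upper quartile scaling. The list's median was -0.42 in WT and -0.10 in cKO, beside 0.0021 and -0.010 over all tested genes, and upper quartile scaling turned the median in cKO to 0.13. Between genotypes only Snhg3 ex vivo (-0.55) and Snhg15 after stimulation (-0.48) were called, beside 1.67% and 3.63% of all tested genes called lower. No host of this list was called ex vivo on the deposited TPM or with a filter of 1 TPM, nor after stimulation with that filter, with median of ratios or upper quartile scaling or with limma-voom.

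Of 6 tested lncRNAs from a further list of 20 names, Firre, an X-linked nuclear RNA that shapes chromosome contacts, is given by its levels only. Its mean level was 2.35 ± 0.201 TPM in WT ex vivo and 8.96 ± 0.988 TPM in cKO ex vivo (SD, n = 3). Its means were 1.72 TPM in WT stimulated and 5.30 TPM in cKO stimulated, so that Firre passed the filter of 5 TPM through the cKO groups alone, and its tests are not used. Dleu2, the host of miR-15a and miR-16-1, rose by 0.58 in cKO ex vivo and by 0.73 with stimulation in WT. Tug1 fell by 0.44 in cKO after stimulation and had a log2 change of -0.43 with stimulation in cKO. Pvt1, next to Myc, changed by -0.32 with stimulation in WT and by -0.36 in cKO. Under upper quartile scaling no lncRNA of this list was called lower with stimulation in either genotype, and 2 of the 6 were called higher in each. With a filter of 1 TPM none was called higher with stimulation in WT and 1 was called lower.

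Genes that share the pyrimidine-rich start of Gas5 were represented by 20 translation-related mRNAs other than ribosomal protein mRNAs. With stimulation 14 of 20 fell in WT and 15 of 20 in cKO, and none rose. Eef1a1, the elongation factor that brings tRNA to the ribosome, had a log2 change of -0.78 in WT and -0.81 in cKO. For Pabpc1, which binds the poly(A) tail, it was -0.79 and -1.08. For Rack1, a protein of the small ribosomal subunit, it was -0.63 and -0.58. The median of the list was -0.55 in WT and -0.61 in cKO. Quantile normalization left 6 of 20 called lower and 1 higher in WT and 7 lower and 2 higher in cKO, and on the deposited TPM 2 of 20 were called lower in WT. Between genotypes 1 of 20 fell ex vivo (Hnrnpa1, -0.66), beside 1.67% of all tested genes, and 1 after stimulation (Pabpc1, -0.47), beside 3.63%.

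The mRNAs for proteins of the nuclear bodies that Malat1 and Neat1 occupy were read in the same libraries. Of 20 mRNAs of nuclear speckle and splicing factors, 11 fell with stimulation in WT and 14 in cKO, and none rose. The log2 change was -1.52 in WT and -1.75 in cKO for the kinase Clk1, -0.48 and -0.99 for the U2 snRNP factor Sf3b1, and -1.42 in WT for the splicing factor Srsf5. Of 20 mRNAs of paraspeckle proteins, 7 fell and 2 rose in WT and 11 fell and 1 rose in cKO, with changes of -0.74 and -0.99 for Sfpq and -0.71 and -1.04 for Hnrnpk. Quantile normalization called 4 speckle factor mRNAs higher in each genotype (7 lower in WT, 9 in cKO), and it moved the split of the paraspeckle protein mRNAs to 4 higher and 5 lower in WT and 3 higher and 7 lower in cKO.

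Of 16 mRNAs of proteins that make or join snoRNA particles, 6 fell in WT and 7 fell and 1 rose in cKO with stimulation. Upper quartile scaling gave 4 higher and 6 lower in cKO and turned the list's median there from -0.14 to 0.085, and quantile normalization gave 2 higher and 5 lower. The mRNA of Nop56, a core protein of box C/D particles, changed by -0.82 and -0.58, and that of Nop10, of box H/ACA particles, by -0.85 and -0.62. Of 14 mRNAs of nonsense-mediated decay factors, 3 fell and 1 rose in WT (21.4% lower, close to the share of all tested genes) and 5 fell and none rose in cKO (35.7% lower), where quantile normalization gave 4 higher and 2 lower, and in WT 5 higher and none lower.

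The glucocorticoid receptor gene Nr3c1 was called in none of the 4 two-group comparisons, while 9 of 11 genes of its list fell with stimulation in WT and 10 of 11 in cKO. Quantile normalization gave 7 lower and 1 higher in WT and 8 lower and 1 higher in cKO. Zfp36, which promotes mRNA decay, changed by -2.55 and -2.91, and Dusp1, a phosphatase of MAP kinases, by -2.60 and -3.00. Between genotypes ex vivo, Tsc22d3, which encodes GILZ, fell by 1.49 and Nfkbia, the inhibitor of NF-kB, rose by 0.89. These stand beside 1.67% of all tested genes called lower and 3.62% higher. With a filter of 1 TPM no gene of this list was called ex vivo. Among 5 control genes of T cell stimulation, Egr2 rose by 1.48 in WT and 1.31 in cKO and Myc by 0.61 and 0.64. Cd69, in contrast, was lower after stimulation than ex vivo, by -1.36 and -1.71, Nr4a1 fell by 0.55 in WT and Egr1 fell by 0.69 in cKO. Under quantile normalization and under upper quartile scaling 1 of the 5 was called lower in each genotype instead of 2, and 3 were called higher in cKO instead of 2.

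The 3 tested genes most like each lncRNA over the 12 libraries were found by Pearson's r of log2(scaled TPM + 1). The 12 libraries fall into 4 groups of 3 and share the scaling, so that r describes mainly the group means. Among the genes most like Malat1 were Calm2 (0.994) and AB041803 (0.993), and Neat1 was most like Bap1 (0.98), H2-Q4 (0.977) and Fam107b (0.976). Gas5 was most like Stk17b (0.995), Klf6 (0.993) and Snhg1 (0.993), and Snhg1 most like Klf2 (0.995), Klf6 (0.994) and Gas5 (0.993). Snhg12 was most like Samd9l (0.975), H2-Ob (0.973) and Scml4 (0.972). Malat1 and Neat1, neighbors on the chromosome, had r = 0.942, which placed Neat1 542nd among the 13317 other genes for Malat1. None of these genes was among the 3 highest by Spearman's rho.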

How the data were processed

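Total RNA depleted of ribosomal RNA was sequenced as stranded 51 bp paired ends. Per the submitters' processing notes and the study's methods, the authors aligned reads to mm9 with STAR 2.6.0c and counted them by strand on Ensembl exons with HTSeq 0.6.1. The signal the authors deposited is TPM per gene and library, and the deposited log2 value is that of the TPM plus the TPM of 1 read. From both columns the reads were recovered (99.9977% of values within 0.01 of a whole read). The authors' table of their own fold changes and p-values was not used.

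Genes with a mean of 5 TPM or more in their highest group (13318) were kept, and their TPM were divided by trimmed mean of M-values factors (30% of M and 5% of A trimmed). log2(scaled TPM + 1) was fitted with limma 3.58.1 in R 4.3.3 (eBayes with a mean-variance trend) over all 12 libraries with the 4 groups as the only term. Fold changes on this scale understate the change of low genes. Two-sided p-values were corrected over all tested genes in each of 5 comparisons (Benjamini-Hochberg), with calls at an adjusted p under 0.05. For single values and ratios, exact permutation tests (two-sided) were run in scipy 1.17.1. The fit was also run on simulated data, and its outcome there is not reported here. Intervals of counting error come from reads without molecular identifiers and cover counting error only.

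The lncRNAs and the gene lists were chosen with earlier results of these data known. Named were the lncRNAs, Ikzf1 and Gm10800, up to 4 genes of a list (highest mean TPM among those called, Snhg16 and the stimulation controls being named beyond this), the 3 genes most like each lncRNA, small RNAs inside an lncRNA and genes within 10000 bases; not every gene that these rules name is reported here. Replicate numbers were not used to pair the libraries in the main fit. Ex vivo, the deviations of same-numbered libraries from their group means correlated by 0.0781 to 0.257, and those of other-numbered libraries by 0.0631 at most. In the other comparisons same-numbered libraries correlated by -0.208 to 0.0573, and other-numbered ones by up to 0.221. The labels name individual mice as the replicates. Alternatives were other filters, pseudocounts and scalings, limma-voom on the recovered reads, a replicate block, fits of the 2 groups alone, no variance trend and leaving out each library. Subtracting the median TPM of 1555 olfactory and vomeronasal receptor genes was chosen after the data were seen. Sequences are from RefSeq (GRCm38.p6) and positions from GENCODE vM1 on NCBIM37 (mm9).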

Additional observations from a re-analysis of the deposited data

How the results depend on the processing

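Of 620 values of the single lncRNAs under the alternatives, 588 kept their direction and their side of the threshold, 13 lost a call, 11 gained one and 8 changed sign. Ex vivo, 2 lncRNAs were called, against 0 with a filter of 1 TPM, with no filter and on the TPM as deposited, and 1 (Snhg12) in the fit of the 6 libraries compared. Leaving out 1 library gave 1 to 2 called ex vivo, 0 to 1 between genotypes after stimulation and 0 to 1 in the interaction. Quantile normalization and subtraction of the silent-gene background each called 1 (Snhg12) after stimulation, and upper quartile scaling called 1 (Snhg12) in the interaction. Gas5 was called ex vivo under 5 alternatives, with adjusted p down to 0.0124 (limma-voom). In these settings the cause was not tested.

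Signs that turned, all of differences that were not called except that of Malat1 with stimulation in WT, were Neat1 ex vivo without cKO ex vivo replicate 1 (-0.019; -0.019 to 0.19 over the left-out libraries), Malat1 after stimulation under quantile normalization (0.11) and without cKO stimulated replicate 3 (0.023; -0.28 to 0.023 over the left-out libraries), Malat1 with stimulation in WT under quantile normalization (0.010), and in the interaction Gas5 with a filter of 1 TPM (-0.037), with no filter (-0.023) and on the deposited TPM (-0.26), and Snhg1 on the deposited TPM (-0.093).

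The scale shifts all genes. On the deposited TPM the median of the tested genes was 0.21 ex vivo, -0.30 after stimulation, 0.18 and -0.31 for stimulation in WT and cKO and -0.52 in the interaction, and upper quartile scaling put it at 0.16 and 0.22 for stimulation. Genes called numbered 704, 923, 4262, 5835 and 147 in the 5 comparisons in the order given above, 57, 52, 1731, 5927 and 0 with a filter of 1 TPM, 273, 306, 1943, 4674 and 67 on the deposited TPM, and 1203, 1247, 4872, 6238 and 394 with limma-voom. For stimulation in cKO, 2305 were higher and 3530 lower, against 4304 and 2153 under upper quartile scaling. Recomputing TPM without Gm10800 moved all 20 group means by more than 1 SD, and scaling moved 3 of 20.

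With the replicate number as a block, which pairs libraries by a number only, genes called numbered 516, 630, 3945, 5458 and 65, and no call of an lncRNA changed. Sequencing depth limits Snhg12 most, with 79 reads at the lowest.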
